A study of Arabidopsis thaliana with 2 samples.

Results

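The Aux/IAA repressor genes and the auxin response factor (ARF) genes of Arabidopsis thaliana were examined for regions called in ChIP of PRR5, a transcriptional repressor of the circadian clock. Members were chosen by gene name: every protein-coding gene listed under a name from IAA1 to IAA34, and every gene named auxin response factor from ARF1 to ARF22. This gave 29 Aux/IAA genes and 22 ARF genes, 51 of 27444 protein-coding genes. The families were singled out with the region calls of these data already known, and being near a region is part of how they were picked, so their counts, reads and ranks are descriptions and were not tested. The names ARF5, ARF7 and ARF19 also carry IAA numbers in the gene table. These 3 genes were counted as ARF genes, and 2 ADP-ribosylation factor genes with the symbols ARF1 and ARF3 were left out.

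The data came from chromatin immunoprecipitation followed by sequencing (ChIP-seq) in prr5 mutants that carried PRR5pro:FLAG-PRR5-GFP, a tagged PRR5 driven by its own promoter. Plants of this genotype gave both libraries, 1 from DNA precipitated with an anti-GFP antibody and 1 from input DNA, so there was 1 library per group and no replicate. Whole plants, 18 days old and kept in 12 h light and 12 h dark, were fixed 10 h after light on. The authors' list holds 8983 regions with 5112270 reads in all, each with a false discovery rate of the ChIP relative to the input. Reads are given once per region, without naming the library, so a read count is a size and not an enrichment over input. Regions differ in length, and counts were not divided by it. Regions were ranked by false discovery rate, with ties ordered by reads. The intervals after read counts are exact 95% Poisson intervals and cover counting error only. Signal from whole plants does not show which organ a region came from, and a region near a gene does not show that PRR5 acts on it.

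Aux/IAA and ARF proteins form the nuclear end of auxin signalling. ARF proteins bind auxin response elements in promoters and activate or repress transcription. Aux/IAA proteins bind to ARFs and recruit TOPLESS corepressors, until auxin joins them to TIR1/AFB receptors and they are degraded. Many Aux/IAA genes are themselves rapidly induced by auxin, and several act in hypocotyl growth, a process that the clock and light gate through the day.

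Of the 29 Aux/IAA genes, 17 were near a region, meaning that the midpoint of a region fell inside the gene or at most 1 kb beyond one of its ends (58.6%; 38.9 to 76.5 by the 95% Clopper-Pearson method). Among the 22 ARF genes it was 11 (50%, 28.2 to 71.8). The share of all protein-coding genes near a region was 28.0%. The intervals of both families overlapped over most of their width. When the false discovery rate was limited to 5%, 13 Aux/IAA genes (44.8%) and 10 ARF genes (45.5%) were near a region, against 20.1% of all genes. Among the 2245 regions ranked best, the counts were 9 Aux/IAA genes (31.0%) and 5 ARF genes (22.7%), against 8.60% of all genes. The ninth of these Aux/IAA genes, IAA19, holds rank 2245, the last that counts. When centres up to 3 kb from a gene were taken, 23 Aux/IAA genes (79.3%) and 16 ARF genes (72.7%) had a region, against 46.7% of all genes.

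**Figure D1:**
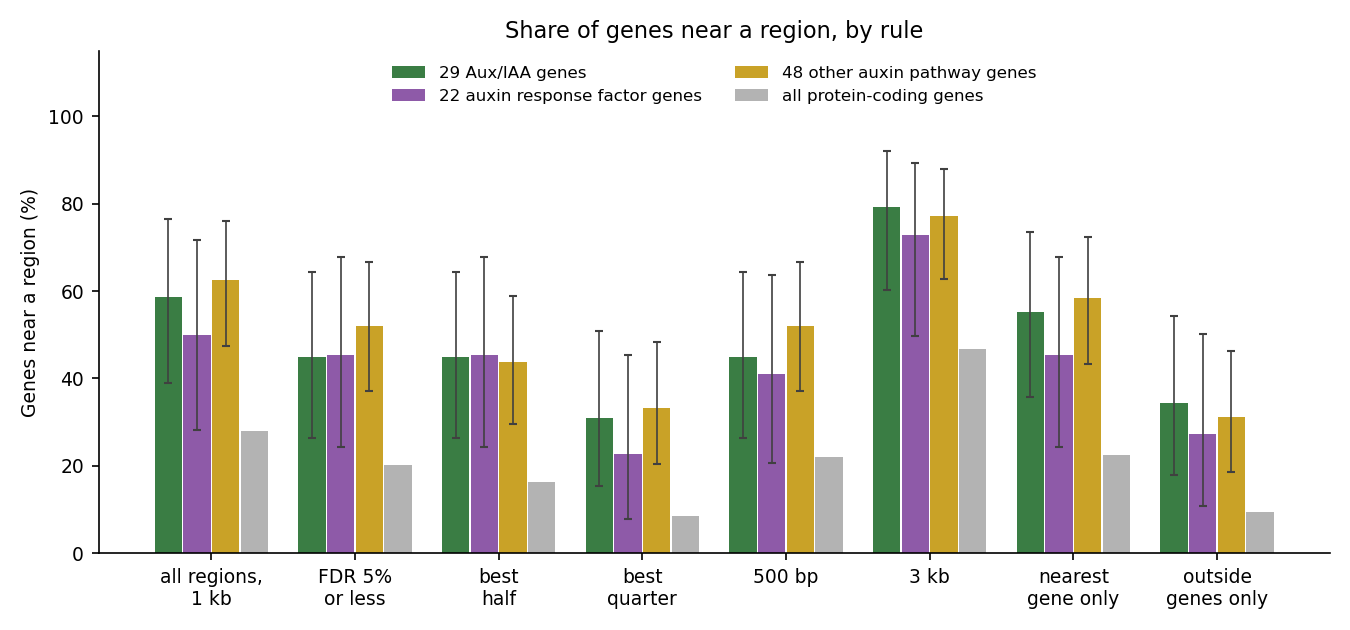
The bars give the percentage of genes near a region under 8 rules for 29 Aux/IAA genes, 22 auxin response factor genes, 48 other auxin pathway genes and all protein-coding genes, and the whiskers are 95% Clopper-Pearson intervals of the lists. FDR is the authors' false discovery rate. The bars of both families stand above the grey bar under each of the rules drawn (58.6% and 50% against 28.0% under the first), and their whiskers overlap each other under each.

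Best regions of the ARF genes held more reads, while those of the Aux/IAA genes ranked better by their medians. The median best region held 485 reads in the 17 Aux/IAA genes (range 36 to 3578) and 919 reads in the 11 ARF genes (68 to 7344). Over all 7689 genes near a region the median was 338 reads. Median ranks were 2245 for Aux/IAA and 2813 for ARF genes, against 3795 over all genes near a region. ARF2 alone exceeded every Aux/IAA gene in reads. The best regions of the other ARF genes held 68 to 1988 reads, within the range of the Aux/IAA genes. The order of the medians turned when centres up to 3 kb away were taken (485 reads for Aux/IAA and 478.5 for ARF genes), when any overlap with the 1 kb counted (485 and 435) and when only centres outside genes were used (458 and 183.5).

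Canonical Aux/IAA proteins carry the degron that auxin receptors recognise, and 23 of the 29 genes encode one. Of these 23 genes 16 were near a region (69.6%, 47.1 to 86.8). Of the 6 non-canonical genes, whose proteins lack a complete degron, 1 was (16.7%, 0.421 to 64.1), beside 28.0% of all genes. The intervals overlapped. Within 3 kb the counts were 20 of 23 and 3 of 6, beside 46.7% of all genes. IAA16 had the most reads of the family, 3578 (3461.7 to 3697.2), in a region of 116 bp at chr3:1290677-1290793 inside the gene, at rank 480 and a false discovery rate of 5.38e-54%. IAA2, an auxin-induced gene, had the best rank of the family, 330, with 1388 reads (1315.9 to 1463.0) at chr3:8181842-8181980 inside the gene. So the highest read count and the best rank fell to different genes.

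IAA3, known as SHY2 from a dominant mutant with a short hypocotyl, had 1575 reads (1498.2 to 1654.8) at rank 650, inside the gene at chr1:1129529-1129679 and also within 1 kb of AT1G04230. IAA8 had 625 reads (577.0 to 676.0) at rank 765 beside the gene, at chr2:9635296-9635422. It was the member nearest to the limit of the rule, with its centre between 900 bp and 1 kb from the gene. Of the genes without a region within 1 kb, ARF14 and IAA20 had one just outside, between 1000 and 1100 bp away. These held 74 and 65 reads, at false discovery rates of 6.63% and 9.25%. That of ARF14 lay within 1 kb of AT1G35550.

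The next 2 Aux/IAA genes by rank both had their region beside the gene. IAA9 had 555 reads (509.8 to 603.2) at chr5:26253270-26253435, at rank 1261. IAA11 had 1266 reads (1197.2 to 1337.7) at rank 1582, at chr4:14141143-14141276, also within 1 kb of ABCB23. That region was nearer to ABCB23, an ABC transporter gene, so IAA11 had none when each region was given to its nearest gene.

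IAA27 and IAA26 encode the phytochrome-associated proteins PAP2 and PAP1. IAA27 had 512 reads (468.6 to 558.3) at rank 1835, at chr4:14326117-14326251 beside the gene. IAA26 had fewer, 216 reads (188.2 to 246.8) at rank 2706, beside the gene at chr3:5611389-5611538, and a second region of 185 reads inside the gene at a false discovery rate of 2.61%. The intervals of their best regions, of 134 and 149 bp, did not overlap. A further region just beyond 1 kb from IAA26 held more reads than these regions of IAA26, 391 (353.2 to 431.7). It ranked lower than the best one, at 3514, and lay within 1 kb of AT3G16510.

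IAA4, listed as ATAUX2-11, had 485 reads (442.8 to 530.1) at rank 1874, at chr5:17550098-17550273, with its centre in the gene and within 200 bp of an end. IAA19, known as MSG2, acts with ARF7 in phototropism and hypocotyl growth. Its region, beside the gene at chr3:5263823-5263969, held 582 reads (535.7 to 631.3) at rank 2245. IAA7, known as AXR2 from an auxin-resistant mutant, completed the first 10 by rank with 204 reads (177.0 to 234.0) at rank 2565, inside the gene at chr3:8196909-8197051, and had a wide second region of 815 bp with 279 reads.

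The other 6 Aux/IAA genes near a region were weaker in rank. IAA5 had 404 reads at a false discovery rate of 9.51e-04%, in a region also within 1 kb of AT1G15590, and IAA18 had 257 reads at 0.0151%. The regions of IAA6, IAA28, IAA29 and IAA33 held 109, 52, 63 and 36 reads at false discovery rates of 36.4%, 50.4%, 46.9% and 46.9%. These 4 genes thus had no region within 1 kb that kept to a rate of 5%, and IAA33 was the non-canonical member counted above. IAA18, IAA29 and IAA33 had better-ranked regions 1 to 3 kb away, with 452, 900 and 322 reads. That of IAA29 lay within 1 kb of AT4G32285, and that of IAA33 within 1 kb of AT5G57410.

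The other 12 Aux/IAA genes were not near a region. Of these, IAA1, IAA14, IAA15, IAA17, IAA20 and IAA30 had at least 1 region 1 to 3 kb away. IAA20 had 3, with 1160, 65 and 38 reads, the last 2 at false discovery rates of 9.25% and 16.4%. That of 1160 reads had rank 1775 and lay within 1 kb of AT2G46995 and of ABCB4, an auxin transporter gene. IAA10, IAA12, IAA13, IAA31, IAA32 and IAA34 had none within 3 kb. IAA12, known as BODENLOS, is the partner of ARF5 in embryo patterning.

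There are 3 pairs of Aux/IAA genes that neighbour each other with no protein-coding gene between, and regions lay in the space between each pair. Between IAA3 and IAA17 (AXR3, named for an auxin-resistant mutant) there were 2 regions, with 259 reads (228.4 to 292.5) at chr1:1131493-1131645 and 499 reads (456.2 to 544.8) at chr1:1134308-1134397. Between IAA14 (SOLITARY ROOT, which acts in lateral root initiation) and IAA1 there were 2, with 433 reads (393.2 to 475.8) at chr4:8353089-8353409 and 139 reads (116.9 to 164.1) at chr4:8358176-8358309, the latter at a false discovery rate of 5.13%. The space between IAA2 and IAA7 held 4 regions, with 109, 583, 689 and 528 reads, and the best of them, at chr3:8189931-8190064, had rank 917. Of these 8 regions, 1, that of 109 reads, was within 1 kb of an Aux/IAA gene, IAA2. The 1 kb rule therefore leaves out 7 regions in the spaces that neighbouring Aux/IAA genes share.

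Among ARF genes, 3 of the 5 activator genes were near a region (60.0%, 14.7 to 94.7), beside 28.0% of all genes. The same 3 of 5 had a region in the first 2245 (60.0%, 14.7 to 94.7), beside 8.60% of all genes. Of the 7689 genes near any region, 2360 had one in the first 2245. Activator ARFs have a glutamine-rich middle region. Of the 5, ARF19, which acts with ARF7 in lateral root formation, had 1988 reads (1901.6 to 2077.4) at rank 323, inside the gene at chr1:6627785-6627935 and also within 1 kb of AT1G19210. A second region beside ARF19 held 34 reads at a false discovery rate of 15.5%. ARF6 and ARF8 are close relatives that act together in flower maturation and are targets of the microRNA miR167. ARF6 had 1539 reads (1463.1 to 1617.9) at rank 1197, in a region of 504 bp at chr1:10686390-10686894, and ARF8 had 1207 reads (1139.9 to 1277.1) at rank 1324, in a region of 71 bp at chr5:14630509-14630580. Both of these lay inside the gene, more than 200 bp from either end.

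Beside ARF6 there was a second region within 1 kb, with 102 reads, and a better one 1 to 3 kb away, with 1468 reads (1393.9 to 1545.1) at rank 297. ARF5 (MONOPTEROS), the activator of embryo and vascular patterning, and ARF7 (NPH4), the partner of ARF19, had no region within 1 kb. At 1 to 3 kb, ARF5 had regions of 1631 and 251 reads, and ARF7 had one of 376 reads. The region of 1631 reads was 1057 bp long and lay within 1 kb of AT1G19860 and iqd32.

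By the best region of each gene, repressor ARFs included both the gene with the most reads of the families and the ARF gene with the fewest. ARF2, a repressor that limits organ and seed size and promotes leaf senescence, had 7344 reads (7177.0 to 7513.9) at rank 35 and a false discovery rate of 4.08e-212%, within 500 bp of the gene at chr5:24909609-24909781. It had no other region within 3 kb, and no other protein-coding gene lay within 1 kb of that region. ARF18 had 1925 reads (1840.0 to 2013.0) at rank 625, at chr3:22887146-22887285 beside the gene. The centre of that region lay inside another gene, and AT3G61826 and AT3G61829 are within 1 kb of it, so ARF18 had none when only nearest genes were counted.

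ARF11 had 287 reads (254.8 to 322.2) at rank 2813 beside the gene at chr2:19104202-19104338, and ARF9 had 265 reads (234.1 to 298.9) at rank 3739 beside the gene at chr4:12450320-12450471. ARF1, the closest relative of ARF2, had 68 reads (52.8 to 86.2) inside the gene, and its false discovery rate was 8.37%. ARF2 and ARF1 thus stood at the opposite ends of the ARF genes near a region by reads. ARF3 (ETTIN) and ARF4, which pattern leaf and gynoecium and are targets of trans-acting small RNAs, had none within 1 kb. At 1 to 3 kb, ARF3 had regions of 407 and 26 reads, the latter at a false discovery rate of 77.3%. ARF4 had regions of 59 and 99 reads there, at rates of 5.66% and 9.27%. That of 26 reads lay within 1 kb of AT2G33850, and that of 99 reads within 1 kb of AGL62.

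ARF10, ARF16 and ARF17, the targets of the microRNA miR160, were all 3 near a region (29.2 to 100%), beside 28.0% of all genes. None of these regions ranked in the first 2245 (0.00 to 70.8%), beside 8.60% of all genes. With 3 genes both intervals are wide. ARF10 had 919 reads (860.5 to 980.4) at rank 2999, inside the gene at chr2:12114916-12115089. ARF17 had 550 reads (505.0 to 597.9) at rank 3417, inside the gene at chr1:29272779-29273017. ARF16 had 82 reads (65.2 to 101.8) at rank 4392, beside the gene at chr4:14706571-14706718. ARF9, ARF10 and ARF16 had better-ranked regions 1 to 3 kb away, with 599, 320 and 192 reads. That of ARF9 lay within 1 kb of CSLG3.

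The 7 remaining genes, ARF12 to ARF15 and ARF20 to ARF22, are close copies on chromosome 1. None of the 7 had a region within 1 kb (0.00 to 41.0%), and this interval holds the 28.0% of all genes. ARF14 was the only one with a region within 3 kb, beside 46.7% of all genes. The stretch of chromosome 1 that they span held 25 regions, 37.4 per Mb, against 79.5 per Mb over the chromosome, and 14 of its 117 protein-coding genes (12.0%) were near a region. How reads that map to several copies were treated is not given in the sources used here, and its part in these 7 genes was not tested. The other 4 ARF genes with no region within 1 kb were ARF3, ARF4, ARF5 and ARF7.

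**Figure D2:**
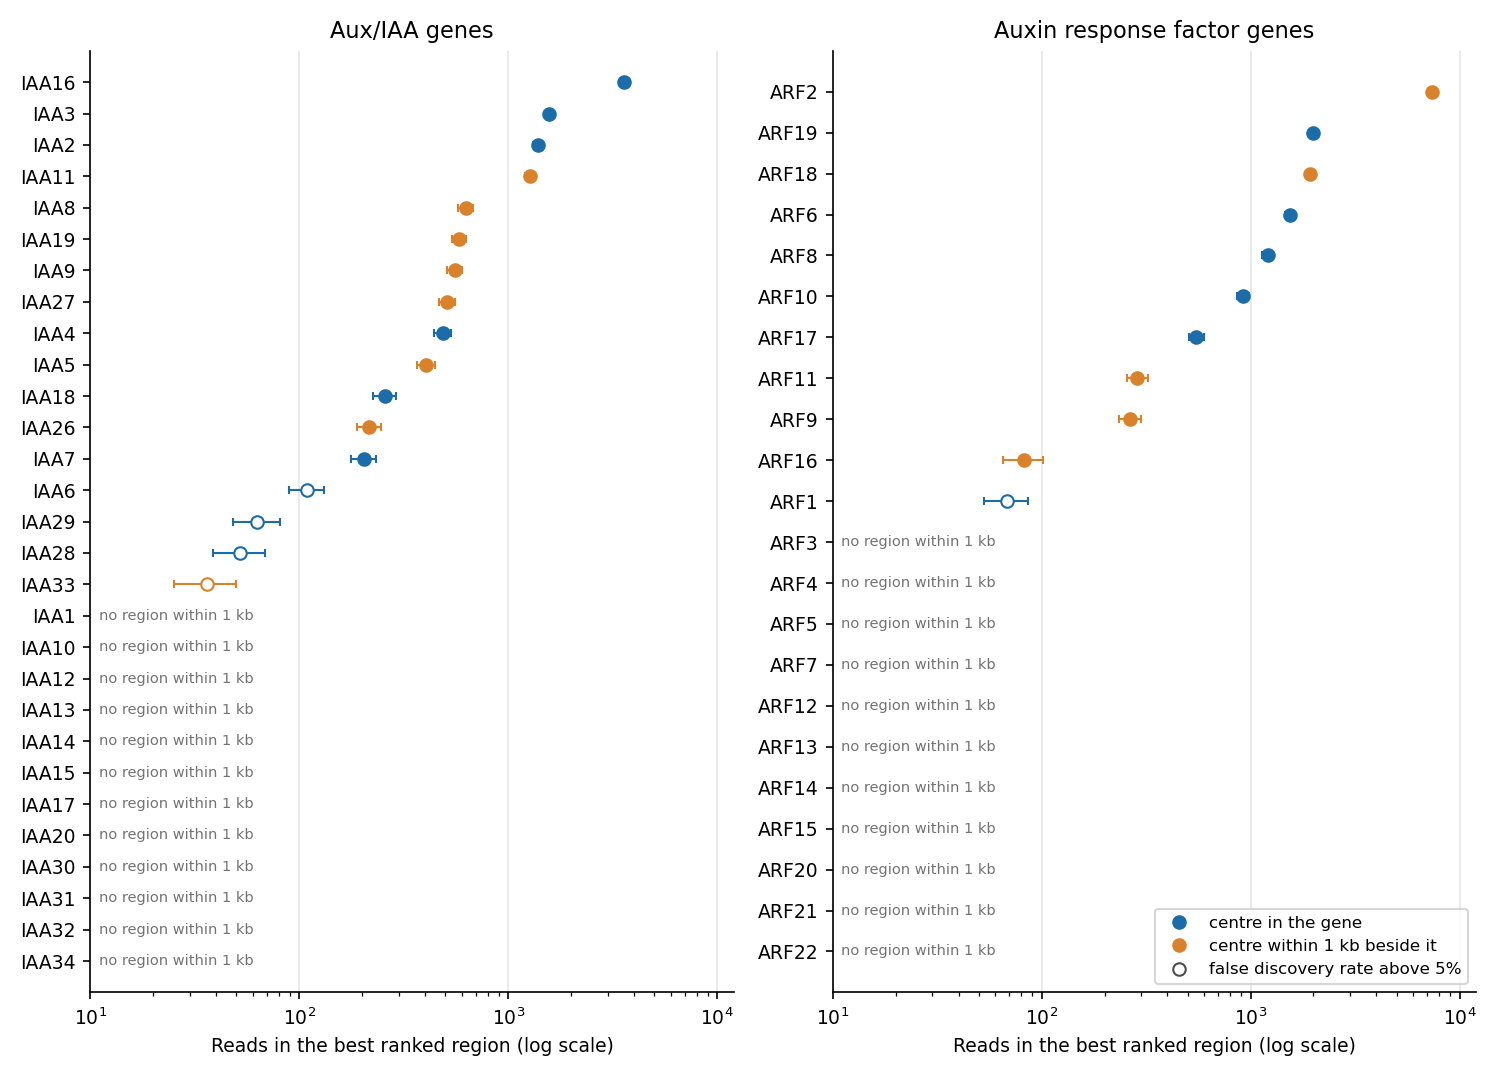
Points give the reads in the best-ranked region within 1 kb of each gene on a log axis, ordered by reads within each family, with exact 95% Poisson intervals (counting error only). Blue points are centred in the gene and orange points beside it, and open points have a false discovery rate above 5%. ARF2, at 7344 reads, stands apart at the top, while 12 Aux/IAA genes and 11 ARF genes have no region within 1 kb.

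In the order of reads within a family, intervals of neighbouring genes overlapped less often among the 11 ARF than among the 17 Aux/IAA genes. Numbers of genes and read counts differ between the families, and their part in this was not tested. Of the 10 neighbouring pairs in the order of ARF genes, 3 had overlapping intervals: ARF19 and ARF18, ARF11 and ARF9, and ARF16 and ARF1. Of the 16 neighbouring pairs among Aux/IAA genes, 10 overlapped. In particular, each gene from IAA8 (625 reads) through IAA19, IAA9, IAA27 and IAA4 to IAA5 (404 reads) overlapped the next. IAA16, IAA3 and ARF2 were each above the next gene in their family beyond counting error.

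Region centres were split between genes and the sequence beside them in like proportion. The best region lay inside the gene in 9 of 17 Aux/IAA genes and 6 of 11 ARF genes, and over all genes near a region in 4208 of 7689. Inside the gene, the centre was within 200 bp of an end in 6 of 9 Aux/IAA genes (IAA2, IAA3, IAA4, IAA6, IAA7 and IAA16) and in 2 of 6 ARF genes (ARF1 and ARF19). Over all genes with such a region it was 991 of 4208 (23.6%). The limit of 200 bp was picked with the positions in view. Annotated gene length differs between the families, with a median of 1740 bp in Aux/IAA and 3670 bp in ARF genes, and its part in these positions and in the counts near a region was not tested. Which end of a gene a region lay at is not given here, since the gene table holds no strand.

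Most best regions had no second gene close by. Another protein-coding gene lay within 1 kb of the best region in 3 of 17 Aux/IAA genes and 2 of 11 ARF genes. Over all genes near a region it was 3451 of 7689. A second region within 1 kb was found at 4 Aux/IAA genes (IAA2, IAA7, IAA26 and IAA29) and 2 ARF genes (ARF6 and ARF19).

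Forward and reverse reads were nearly even at most of these genes. Of the 21 regions within 1 kb of Aux/IAA genes, none had a forward share whose 95% Clopper-Pearson interval left out 50%. Of the 13 at ARF genes, 3 did: ARF10 with 46.1% forward reads (42.9 to 49.4), ARF11 with 40.8% (35.0 to 46.7) and ARF16 with 34.1% (24.0 to 45.4). All 3 had more reverse than forward reads. The intervals were not adjusted for the 34 regions.

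Genes of auxin synthesis, transport, perception and response were set beside the families. From a list of 48 such genes 30 were near a region (62.5%, 47.4 to 76.0), 25 with the rate limited to 5% and 16 among the 2245 ranked best, beside 28.0%, 20.1% and 8.60% of all genes. TOPLESS corepressors, which Aux/IAA proteins recruit, had a region at 4 of 5 genes (80.0%, 28.4 to 99.5), beside 28.0% of all genes. The same 4 of 5 had one among the 2245 ranked best, beside 8.60% of all genes. Their ranks ran from 117 to 221, and 221 is the last of these ranks, not a limit set beforehand. TPR2 led them with 3851 reads (3730.3 to 3974.6) at rank 117, at chr3:5731096-5731263 beside the gene. TPL had 3286 reads, TPR1 2047 and TPR3 1607, and TPR4 had no region within 1 kb.

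Of the 6 auxin receptor genes 4 were near a region (66.7%, 22.3 to 95.7), beside 28.0% of all genes. With the rate limited to 5% it was the same 4 of 6, beside 20.1% of all genes. Of the 7689 genes near any region, 5513 had one at that rate. TIR1 led with 4893 reads (4756.9 to 5032.1) at rank 57, at chr3:23276471-23276616 inside the gene. Transport genes had regions at 8 of 12 (66.7%, 34.9 to 90.1), and at 7 with the rate limited to 5%. PIN7, an auxin efflux carrier gene, led with 3024 reads (2917.2 to 3133.7) at rank 98, at chr1:8181381-8181515 inside the gene. Among the genes listed here as early response targets 7 of 11 had one (63.6%, 30.8 to 89.1), and 5 with the rate limited to 5%. GH3.3, whose enzyme conjugates auxin to amino acids, had the best rank, 236, with 1714 reads (1633.8 to 1797.1) at chr2:9866676-9866814 beside the gene. GH3.9 had more reads, 2915 (2810.1 to 3022.8), at rank 688, in a region also within 1 kb of GSTF8. Of the synthesis genes 7 of 14 had one, and TAR2, of the tryptophan aminotransferases, led with 1332 reads (1261.4 to 1405.5) at rank 784, at chr4:12727052-12727209 beside the gene.

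**Figure D3:**
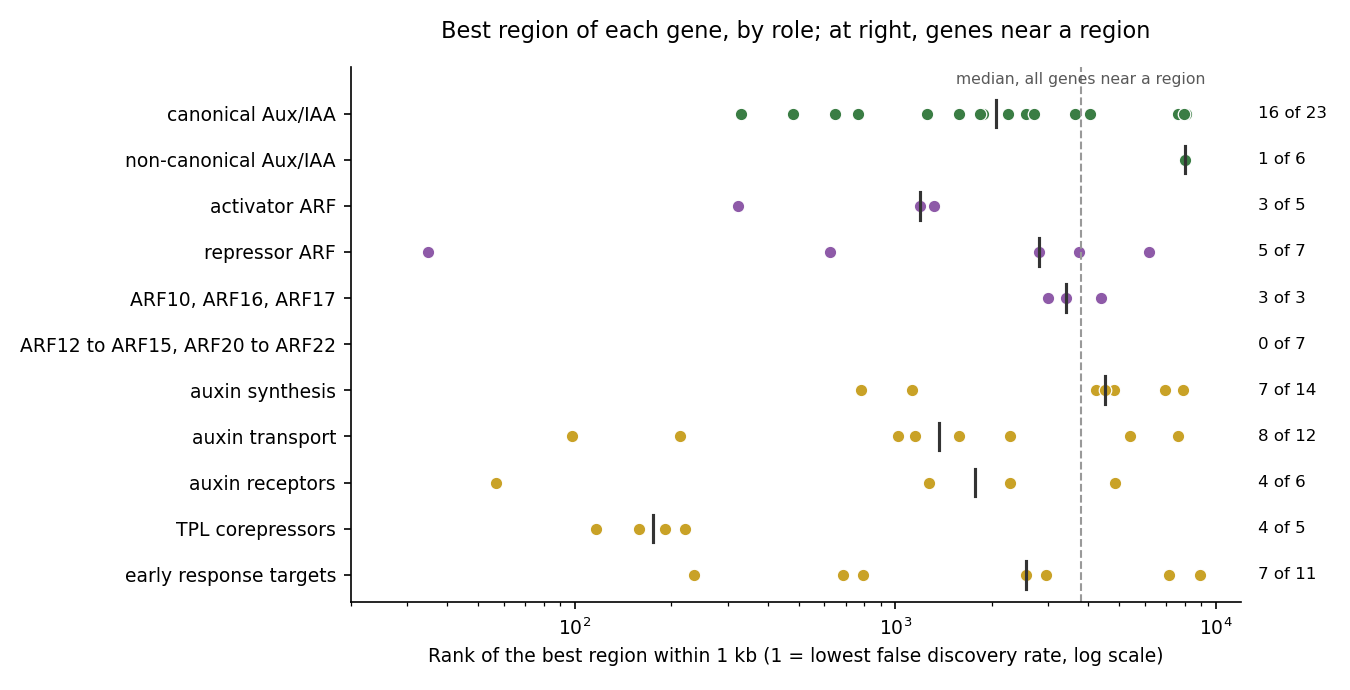
Each point is the rank of the best region within 1 kb of a gene (log axis, 1 is the lowest false discovery rate), in rows by role, with Aux/IAA genes in green, ARF genes in purple and other auxin pathway genes in yellow; short bars are medians, the dashed line is the median over all genes near a region (3795), and the figures at right count genes near a region. ARF2 at rank 35 lies farthest to the left, the TOPLESS corepressor genes cluster between ranks 117 and 221, and the row of ARF12 to ARF15 and ARF20 to ARF22 is empty.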

How the data were processed

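One deposited list of regions was used, called by the authors in ChIP DNA relative to input DNA, with 1 library per group. The reference was TAIR9, per the file headers and the submitters' processing notes. Aligner, caller and filters: not given in the sources used here. The deposited values used are whole-number read counts (all and forward), region lengths and the authors' false discovery rate in percent, which runs from 0 to 100%. Total library depth is not given in the sources used here.

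Region centres (midpoints) were set beside protein-coding genes of chromosomes 1 to 5 in the RefSeq table of TAIR10.1, while the list names TAIR9. Gene names, starts and ends were used as that table gives them, and no coordinate was converted. Every place and distance given for a region rests on these starts and ends. All 51 members were matched by name, and all 48 other pathway genes by locus and name. Shares have 95% Clopper-Pearson and reads exact Poisson intervals (scipy 1.17.1, pandas 2.3.3, Python 3.11.15), and both treat reads or genes as independent. Gene assignment was tested on simulated regions. No test between families was made. Members, lists, roles and rules were chosen with earlier results of these data known. Every member was accounted for; the 10 best-ranked near a region of each family, and the best of each other pathway role, are given in full. Promoter motifs, protein features and the 5′ side of genes were planned but not analysed here, as no sequence or strand was used.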

Additional observations from a re-analysis of the deposited data

How the results depend on the processing

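Counts near a region kept within 1.5-fold of 17 Aux/IAA, 11 ARF and 30 other pathway genes in 7 of the 9 alternatives run. They moved further with the 2245 best-ranked regions (9, 5 and 16) and with regions centred outside every protein-coding gene (10, 6 and 15), where fewer regions are used by construction; all genes then stood at 8.60% and 9.51%. Median reads of the best region, 485 and 919, became 555 and 1063 with the rate limited to 5% and with the 4491 best-ranked regions, and 625 and 1925 with the 2245. Within 500 bp the Aux/IAA median was 404. The ARF median was 478.5 within 3 kb, 435 with any overlap (which adds ARF14, and takes for ARF10 its better-ranked region of 320 reads), 734.5 with the nearest gene only and 183.5 outside genes, so the order of the family medians reversed in the last of these, where the Aux/IAA median was 458, and in the cases of 3 kb and any overlap (485 for Aux/IAA in each). Merging changed nothing, since no regions overlap. The 5′ alternative was not run, as the gene table holds no strand. No paired analysis was possible because each group has 1 library, and the spread between plants cannot be given.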
